A study of Mus musculus with 13 samples.

Results

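The provisional matrix genes described here are 10 genes for the extracellular material that is laid down or remodelled early after tissue injury: Vcan, Fn1, Tnc, Postn, Has1, Has2, Cd44, Thbs1, Adamts1 and Adamts4. They were taken by symbol from the 32544 rows of the deposited count table, and all 10 symbols were found. The set was chosen on the rise of Vcan between hyperoxic and normoxic lung, and its other genes were added for their known place in the same matrix. The values of Vcan are therefore given as a description with no test, and the whole set was put together with results of this comparison known.

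The samples were lungs of male wild-type C57BL/6J mice, bought at 7 weeks of age, perfused and frozen after 5 days in either room oxygen or hyperoxia. In normoxia (21% oxygen) there were 7 libraries and in hyperoxia (80% oxygen) 6, and the labels name no other treatment or allele in either group. RNA of whole lung was sequenced from the 3′ end of its transcripts (Quant-seq), so each count comes from near the end of a transcript. A bulk library cannot tell fewer cells of a type from less RNA per cell.

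Versican, encoded by Vcan, is a large chondroitin sulphate proteoglycan that binds hyaluronan, the long sugar polymer made at the cell membrane by the hyaluronan synthases Has1 and Has2. Together with fibronectin, tenascin-C and thrombospondin-1 they form a loose, hydrated matrix that appears in developing and injured lung and is later cleared or replaced by collagen. CD44 is the main cell-surface receptor of hyaluronan, and ADAMTS1 and ADAMTS4 are secreted metalloproteases that cut versican.

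Total counts were between 1607111 and 3387736 per normoxic library and between 2029006 and 4540288 per hyperoxic library, so that 3 counts, used here as the floor of detection, corresponded to 0.656 to 1.84 CPM, the count scaled to a common library size. Hyperoxia replicate 1 stood apart, with correlations of log2 CPM to the other 12 libraries of 0.721 to 0.833, against 0.854 to 0.967 among the others, and values without it are given where it matters. The tissue was recognisable as lung in both groups, but the summed level of 6 alveolar type 2 cell markers was 12382 to 23028 CPM in normoxia and 3181 to 6846 CPM in hyperoxia. At the threshold used below, 5 of the 6 fell, beside 10.8% of all genes tested. All levels below are CPM scaled by the TMM method, and they were not compared between genes. A value after ± is the SD over the libraries of a group.

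Of the 10 genes, 8 passed the filter on low counts, which asks for 3.36 unscaled CPM in 6 libraries, and Has1 and Has2 did not. Adamts4 passed it only through the hyperoxic group, where it is high, so it had to differ and is left out of the counts here. Of the 6 genes other than Vcan that would also have passed on their normoxic libraries, 4 rose in hyperoxia by the quasi-likelihood test of edgeR with an adjusted p below 0.05, namely Fn1, Tnc, Thbs1 and Adamts1, where 11.8% of all 12496 genes tested did so. None of the 6, and not Adamts4, fell with edgeR, where 10.8% of all genes did, and the count was also 0 at an unadjusted p under 0.05, with DESeq2 and with limma-voom. Postn and Cd44 did not pass the test. With a log2 fold change over 1.5 required as well, 2 of the 6 were called (Tnc and Thbs1), against 1.55% of all genes. In the same 2 genes every hyperoxic library lay above every normoxic library in TMM-scaled CPM, which was the case for 5.6% of all genes. For Thbs1 the margin was only 59.7 against 59.5 CPM and depends on the scaling. The groups did not overlap in Vcan and Adamts4 either, which is a description, as the choice of the set and the filter used these values. With Adamts4 counted, whose rise the filter favours, the number that rose was 5 of 7, beside 11.8% of all genes. Without hyperoxia replicate 1 it was also 5 of 7, beside 15.2% of the 12752 genes tested in that fit.

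**Figure D1:**
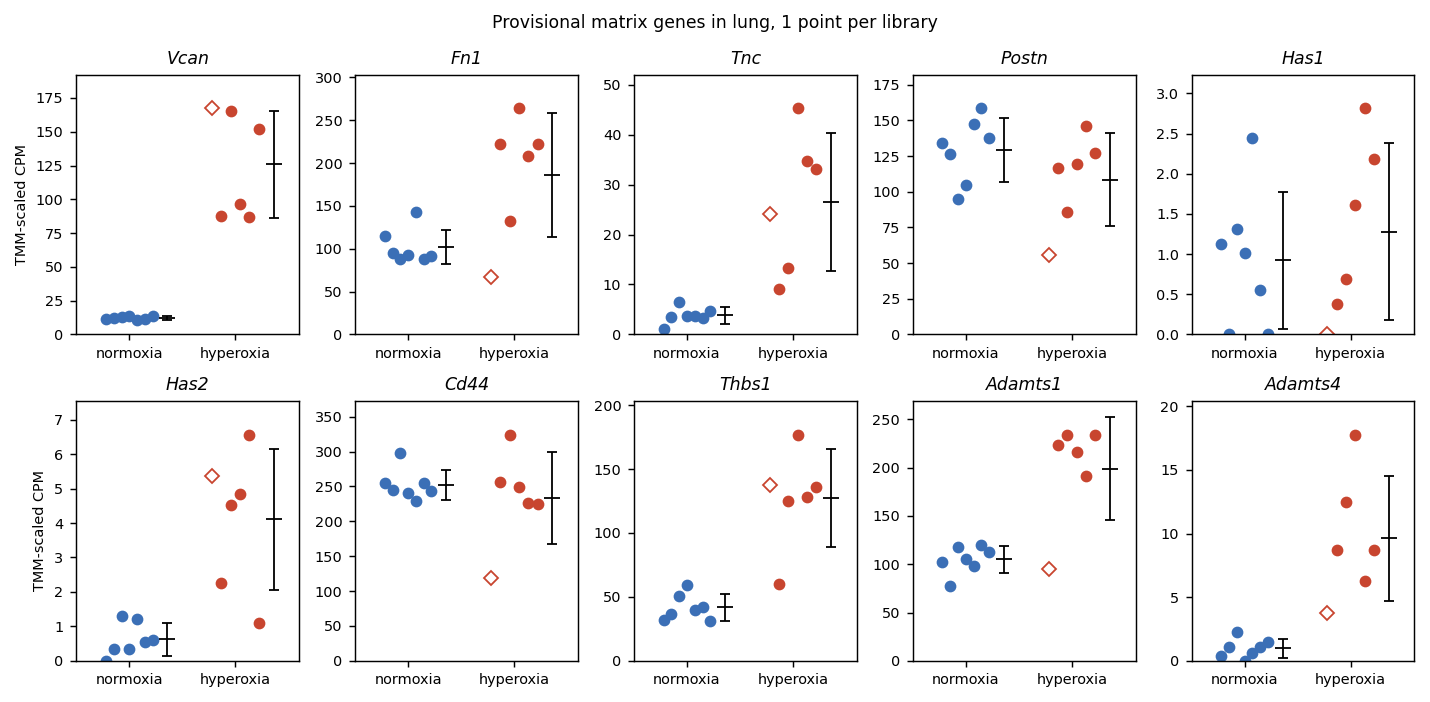
Level of each of the 10 genes in TMM-scaled CPM (vertical axes, linear and starting at 0) in 7 normoxic (blue) and 6 hyperoxic (red) lung libraries, 1 point per library, with the mean and SD in black and hyperoxia replicate 1 as an open diamond. The groups are apart in Vcan, Tnc, Thbs1 (by 59.7 against 59.5 CPM only) and Adamts4, and the open diamond lies at 67.6 CPM in Fn1 and at 94.9 CPM in Adamts1.

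Vcan lies on the minus strand of chr13:89655312-89742509 (GRCm38). Its level was 10.4, 12.2 and 13.7 CPM in the lowest, median and highest normoxic library and 86.6, 125 and 167 CPM in the hyperoxic ones. All hyperoxic libraries were far above a narrow normoxic range, and within hyperoxia they fell into a lower set (replicates 2, 4 and 5, at 87.7, 96.7 and 86.6 CPM) and a higher one (replicates 1, 3 and 6, at 167, 165 and 152 CPM). The mean was 12.2 ± 1.25 CPM in normoxia (SD, n = 7) and 126 ± 39.5 CPM in hyperoxia (SD, n = 6), which is a fitted difference of 3.35 on the log2 scale, with a standard error (SE) of 0.20, or 10.2-fold. It was the 12th highest log2 fold change of the 12496 genes tested. Behind these levels stand 17 to 46 counts per normoxic library and 232 to 697 per hyperoxic library.

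Among the other structural proteins, the steepest rise was that of Tnc (chr4:63959785-64047015, minus strand), which encodes tenascin-C, a multi-armed glycoprotein that is sparse in adult tissue and induced at sites of repair. In normoxia its lowest, median and highest levels were 1.12, 3.68 and 6.54 CPM, and in hyperoxia they were 9.07, 28.6 and 45.2 CPM. The groups did not overlap, but the hyperoxic libraries spread 4.99-fold, with replicates 2 and 3 (9.07 and 13.2 CPM) below the other four. Tnc rose by 2.79 on the log2 scale (SE 0.39, edgeR adjusted p = 0.000119). Normoxic libraries held only 3 to 20 counts of this gene.

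Thbs1 (chr2:118111876-118127133, plus strand) encodes thrombospondin-1, a platelet and stromal matricellular protein that activates latent TGF-β and inhibits angiogenesis. Its level was 31.2, 39.8 and 59.5 CPM in the lowest, median and highest normoxic library and 59.7, 132 and 177 CPM in the hyperoxic ones. The lowest hyperoxic library, replicate 2, lay just above the highest normoxic library, replicate 4, and the other 5 were at 125 CPM or more. These 2 libraries held 158 of 2693912 and 177 of 2976728 counts, so that without TMM scaling the normoxic one lay higher and the groups overlapped. The rise was 1.61 on the log2 scale (SE 0.22, edgeR adjusted p = 0.000101). The 7 markers of platelets and megakaryocytes, of which 4 were tested and 1 (Ppbp) fell (beside 10.8% of all genes tested), summed to 54.6 to 90.1 CPM in normoxia and 38.6 to 73.5 CPM in hyperoxia.

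Fn1 (chr1:71585520-71653200, minus strand), the gene of fibronectin, the adhesive glycoprotein on which much of the provisional matrix assembles, rose with an overlap between the groups. Normoxic libraries were at 88.4, 92.5 and 143 CPM (lowest, median and highest) and hyperoxic libraries at 67.6, 215 and 264 CPM. Of the 6 hyperoxic libraries, 4 lay above every normoxic library, replicate 3 (133 CPM) lay within the normoxic range and replicate 1 (67.6 CPM) lay below it. Fn1 rose by 0.87 on the log2 scale (SE 0.25, edgeR adjusted p = 0.0173), and by 1.06 without replicate 1 (SE 0.16, edgeR adjusted p = 0.000148). With limma applied to the deposited logarithms, Fn1 no longer passed (0.68, adjusted p = 0.0927).

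Postn (chr3:54361109-54391037, plus strand) encodes periostin, a matricellular protein of fibroblasts that is associated with fibrotic remodelling. Its level was 95.2, 134 and 158 CPM in the lowest, median and highest normoxic library and 55.8, 118 and 146 CPM in the hyperoxic ones. The groups overlapped except for hyperoxia replicates 1 and 3 (55.8 and 85.5 CPM), which were below every normoxic library. Its change of −0.25 on the log2 scale (SE 0.20) did not pass the test (edgeR adjusted p = 0.403).

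The bases before the transcription start of 6 of the 10 genes (Vcan, Tnc, Postn, Has1, Cd44 and Adamts1) were found in the RefSeq table of GRCm38.p6, and those of 4 are shown because Vcan, Tnc and Adamts1 were higher in hyperoxia while Postn did not pass the test. They are the 250 bases upstream of the annotated start, 5′ to 3′ on the strand of the gene, at chr13:89742513-89742762 (Vcan, minus strand), chr4:64047016-64047265 (Tnc, minus strand), chr16:85803114-85803363 (Adamts1, minus strand) and chr3:54360857-54361106 (Postn, plus strand). Capitals mark the TATA box motif TATAAA, searched on both strands.
Vcan: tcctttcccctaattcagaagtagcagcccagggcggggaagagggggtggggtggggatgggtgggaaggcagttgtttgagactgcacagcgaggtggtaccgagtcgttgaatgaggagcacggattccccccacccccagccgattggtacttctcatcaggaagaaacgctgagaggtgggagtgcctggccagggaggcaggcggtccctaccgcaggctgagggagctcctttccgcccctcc
Tnc: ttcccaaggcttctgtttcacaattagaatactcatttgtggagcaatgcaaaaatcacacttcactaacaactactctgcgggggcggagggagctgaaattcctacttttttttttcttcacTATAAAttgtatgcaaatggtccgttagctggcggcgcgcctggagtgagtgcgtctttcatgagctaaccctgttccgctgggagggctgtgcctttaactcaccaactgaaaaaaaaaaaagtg
Adamts1: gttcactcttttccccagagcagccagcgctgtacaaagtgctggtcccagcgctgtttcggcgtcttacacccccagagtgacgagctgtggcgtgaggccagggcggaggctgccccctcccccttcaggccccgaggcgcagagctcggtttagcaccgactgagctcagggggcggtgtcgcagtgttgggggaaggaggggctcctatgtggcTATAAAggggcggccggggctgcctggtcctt
Postn: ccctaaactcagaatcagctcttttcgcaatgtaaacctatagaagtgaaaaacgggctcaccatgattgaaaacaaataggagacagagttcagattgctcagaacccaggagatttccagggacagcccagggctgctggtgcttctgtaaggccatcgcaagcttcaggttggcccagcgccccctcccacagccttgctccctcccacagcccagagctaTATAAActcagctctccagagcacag

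The motif began 32 bases before the start of Adamts1, 26 before that of Postn and 126 before that of Tnc, and Vcan had no match in this window. It was found in 12.4% of 32851 windows of the same length. The window of Vcan was rich in G and C (62.4%), like that of Adamts1 (65.6%), while that of Tnc was lower (44.8%) and that of Postn at 52.0%. None of the 6 windows held the AP-1 motif TGANTCA, the TEAD motif GGAATG or the TCF/LEF motif CTTTGA on either strand, which stood in 6.75%, 12.6% and 13.8% of all windows. A match or its lack describes these letters in this window and no more.

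The mRNAs of the hyaluronan synthases were near the floor of detection in normoxic lung. Has2 (chr15:56665627-56694539, minus strand), the main synthase of development and injury, had 0 to 4 counts in the 7 normoxic libraries, with 6 of them at 3 counts or fewer, and 10, 6, 13, 18, 21 and 5 counts in hyperoxia replicates 1 to 6. In CPM, 5 of the 6 hyperoxic libraries were above every normoxic library, and replicate 6 (1.09 CPM) was not. Over all libraries of a group, 12 counts stood against 73, a ratio per scaled library size of 6.49 (95% exact binomial interval 3.50 to 13.1, which covers counting error only). An exact permutation test of the difference in mean log2 CPM between the samples gave p = 0.00175 (two-sided). In a fit of 19718 genes without a filter on low counts, Has2 rose by 2.72 on the log2 scale (SE 0.56, edgeR adjusted p = 0.00265).

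Has1 (chr17:17843323-17855205, minus strand), the synthase of mesothelial and stimulated stromal cells, had 0 to 4 counts in normoxia and 0, 1, 2, 6, 9 and 10 counts in hyperoxia replicates 1 to 6. Only 1 hyperoxic library (replicate 5, 2.81 CPM) was above the highest normoxic library (2.45 CPM), and the lower 3 hyperoxic libraries were at or under the floor. The ratio of 16 to 28 counts per scaled library size was 1.87 (95% exact binomial interval 0.977 to 3.70), and in the fit without a filter the log2 fold change of 0.69 (SE 0.74) did not pass (edgeR adjusted p = 0.56), so that no difference was detectable at this depth.

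Cd44 (chr2:102811141-102901665, minus strand), the hyaluronan receptor, did not pass the test. Its level was 230, 245 and 298 CPM in the lowest, median and highest normoxic library and 119, 238 and 324 CPM in the hyperoxic ones. Replicates 5 and 6 (227 and 225 CPM) lay just under the normoxic range, replicate 1 at 119 CPM lay far below it, and replicate 3 was the highest of all libraries. On the log2 scale the difference was −0.11 (SE 0.18, edgeR adjusted p = 0.698) and 0.040 (SE 0.12) without replicate 1, with no call in either fit.

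Both versican-cleaving proteases rose. Adamts4 (chr1:171250421-171260637, plus strand) had 0 to 7 counts per normoxic library and 7 to 66 per hyperoxic library. In CPM the lowest, median and highest values were 0, 1.05 and 2.29 in normoxia and 3.75, 8.72 and 17.8 in hyperoxia, with no overlap. Adamts4 rose by 3.20 on the log2 scale (SE 0.48, edgeR adjusted p = 0.00024), from a normoxic level at which 4 of 7 libraries were at or under the floor. No normoxic library and all 6 hyperoxic libraries reached the level the filter asks for, so the gene was tested because of its hyperoxic counts, and in the fit without a filter the value was 3.23 (edgeR adjusted p = 0.000148). With limma applied to the deposited logarithms it was 2.32, or 4.99-fold against 9.16-fold.

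Adamts1 (chr16:85793827-85803113, minus strand), which also has anti-angiogenic thrombospondin repeats, was well detected in both groups. Its level was 77.9, 106 and 120 CPM in the lowest, median and highest normoxic library and 94.9, 220 and 234 CPM in the hyperoxic ones. In hyperoxia, 5 libraries formed a tight group between 192 and 234 CPM, and replicate 1 was inside the normoxic range. Adamts1 rose by 0.92 on the log2 scale (SE 0.19, edgeR adjusted p = 0.0021) and by 1.08 (SE 0.12, edgeR adjusted p = 7.25e-06) without that library.

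Genes on the opposite strand overlap 7 of the 10 genes, but in none of the 10 does one reach into the last 1000 bases, where 3′ reads fall. The sources used here do not state whether the counting used strand.

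**Figure D2:**
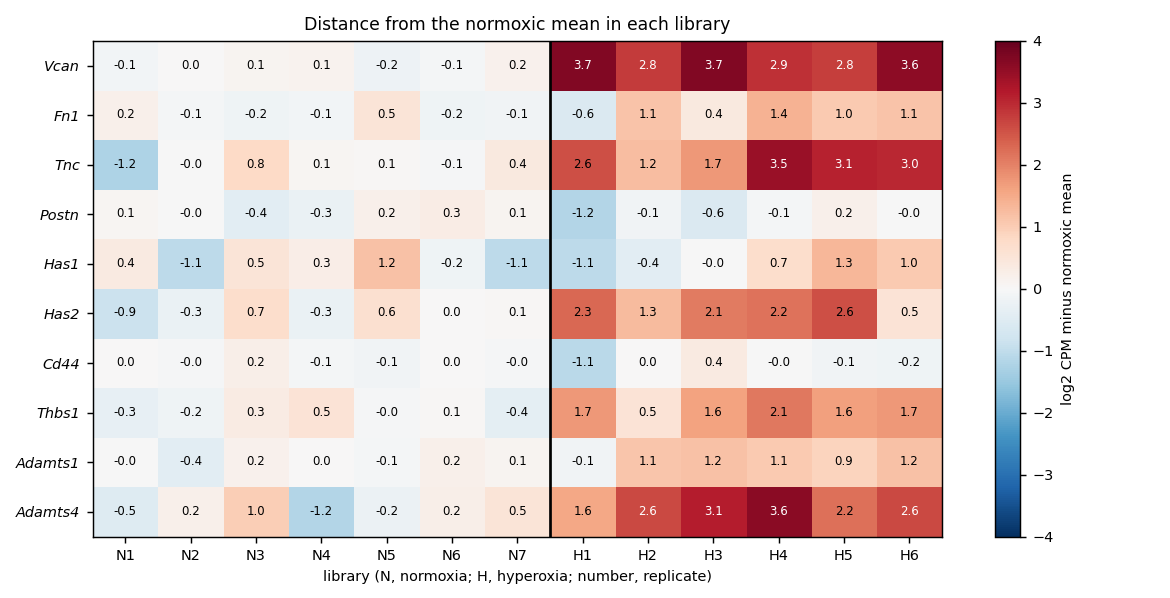
Log2 CPM of each gene minus its mean over the 7 normoxic libraries (colour and printed value), with 1 column per library (N, normoxia; H, hyperoxia). The columns H1 to H6 are red throughout for Vcan, Tnc, Has2, Thbs1 and Adamts4, and H1 is below the normoxic mean for Fn1, Postn, Has1, Cd44 and Adamts1.

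The hyperoxic libraries did not rank alike from gene to gene. Replicate 1 was the lowest hyperoxic library in 6 of the 10 genes (Fn1, Postn, Has1, Cd44, Adamts1 and Adamts4), yet it held the highest level of Vcan (167 CPM). Replicate 4 was highest for Fn1, Tnc, Thbs1 and Adamts4, at 264, 45.2, 177 and 17.8 CPM, but among the lower libraries for Vcan (96.7 CPM). Replicate 2 had the lowest Tnc and the lowest Thbs1, at 9.07 and 59.7 CPM. The library with most versican mRNA was thus not the one with most fibronectin, tenascin-C or thrombospondin-1 mRNA.

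By the letters in their names the libraries form 2 sets, B to M with 5 normoxic and 3 hyperoxic libraries and O to S with 2 and 3, and the labels do not say what the letters mean. Within each letter set the hyperoxic mean was above the normoxic mean for Vcan, Fn1, Tnc, Has2, Thbs1, Adamts1 and Adamts4. Has1 went in opposite directions, from a mean of 1.18 to 0.358 CPM within B to M and from 0.279 to 2.21 CPM within O to S, at 0 to 10 counts per library and without a test. The log2 fold change of Tnc was 2.01 within B to M and 3.21 within O to S, a difference of 1.19 (SE 0.68) that did not pass the test (edgeR adjusted p = 0.551). For Fn1 it was 0.40 within B to M (edgeR adjusted p = 0.361) and 1.36 within O to S (edgeR adjusted p = 0.0516), so that the call of Fn1 did not hold within either set, and the difference of 0.96 (SE 0.47) did not pass either (edgeR adjusted p = 0.539). Adamts1 had 0.88 in both sets and was called within B to M only (edgeR adjusted p = 0.0248, against 0.117 within O to S). Vcan was at 3.52 within B to M and 3.15 within O to S.

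**Figure D3:**
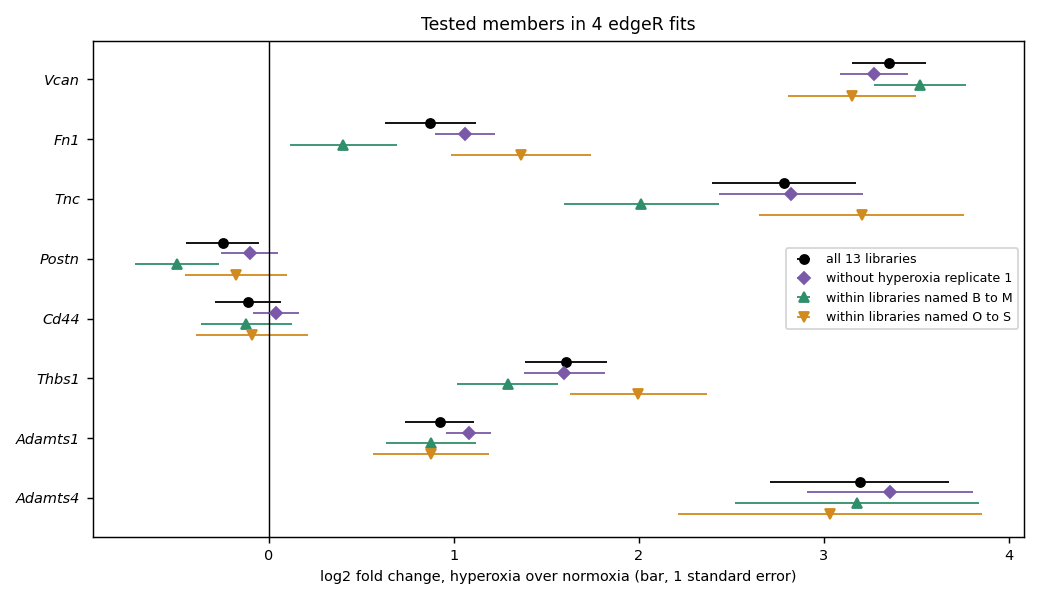
Log2 fold change of the 8 tested genes with 1 standard error in 4 edgeR comparisons: all 13 libraries, without hyperoxia replicate 1, and within each of the library name sets B to M and O to S. The values within sets come from the same fit to all 13 libraries and share its estimate of spread. Vcan stays between 3.15 and 3.52, while Fn1 runs from 0.40 to 1.36.

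To place these genes in their pathway, 88 other genes were listed by role, of which 58 were tested. Of the 58, 19 rose and 9 fell at the same threshold, beside 11.8% higher and 10.8% lower of all genes, with a median log2 fold change of 0.20 against −0.03 over all 12496 genes, and without hyperoxia replicate 1 the numbers were 22 and 10 of 60, beside 15.2% and 13.3% of all 12752 genes tested in that fit. Thbs3, Vtn and Itga5 would not have passed the low-count filter on the libraries of the group where they are lower, so their calls are limited in a similar way to that of Adamts4, and without them 18 genes rose and 7 fell. The lists were chosen with earlier results of these data known, and their counts are a description.

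Of the genes of hyaluronan handling, 2 of 12 tested were higher and 3 lower, beside the shares of 11.8% and 10.8% over all genes, so that the number of higher genes was near the background. Lyve1, a hyaluronan receptor of lymphatic endothelium and of a class of interstitial macrophages, rose from 625.3 CPM with an SD of 148 to 5508 CPM with an SD of 1791, or by 3.14 on the log2 scale (SE 0.22, edgeR adjusted p = 2.16e-07). Ugdh, the enzyme that makes the UDP-glucuronic acid used for hyaluronan, rose by 0.53 on the log2 scale (edgeR adjusted p = 0.0184). Tmem2, described as a cell-surface hyaluronidase and now named Cemip2, fell by 0.59 (edgeR adjusted p = 0.012). The inter-alpha-trypsin inhibitor heavy chain genes Itih4 and Itih5, from a family of which some but not all members are coupled to hyaluronan, fell by 2.44 and 1.17 (edgeR adjusted p = 2.16e-07 and 0.00203). The hyaluronidase genes Hyal1 and Hyal2 were at −0.57 and −1.03 and the hyaluronan-binding Tnfaip6 at 0.19, and none of the 3 passed the test (edgeR adjusted p = 0.0537, 0.142 and 0.732), although Hyal1 did without hyperoxia replicate 1 (−0.72, edgeR adjusted p = 0.00458).

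None of the lecticans, the proteoglycan family of versican, or of the link proteins that join them to hyaluronan was called, with 2 of 7 tested. Hapln1 was at −1.04 (SE 0.41, edgeR adjusted p = 0.0807) and Ncan at −0.05 (edgeR adjusted p = 0.954), and aggrecan (Acan) had no count in any library, where the floor allows up to 1.84 CPM in the shallowest.

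Of the other proteases of this kind and their inhibitor Timp3, 3 of 6 tested rose and none fell, beside 11.8% and 10.8% of all genes. Adamts15, another versican-cleaving protease, went from 9.33 ± 3.39 to 25.7 ± 19.0 CPM (log2 fold change 1.49, edgeR adjusted p = 0.0338), with hyperoxic libraries between 1.61 and 55.9 CPM. Adamts2, which trims procollagens, rose by 1.12 (edgeR adjusted p = 1.24e-05) and Timp3, the inhibitor of the ADAMTS proteases, by 0.81 (edgeR adjusted p = 0.000824), both without overlap between the groups. Adamts5, Adamts8 and Adamts9 were at −0.25, 0.35 and 0.58 and did not pass, although Adamts9 did without hyperoxia replicate 1 (0.63, edgeR adjusted p = 0.0392).

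Among thrombospondins, tenascins and other matricellular genes, 6 of 15 tested rose and 2 fell, beside 11.8% and 10.8% of all genes, so that the number of lower genes was near the background. Those that fell were Thbs3 (log2 fold change −2.35, edgeR adjusted p = 9.54e-05) and Fbln1, the gene of the versican-binding fibulin-1 (−1.38, edgeR adjusted p = 0.000852). Thbs3 thus went the opposite way to Thbs1, from 22.5 ± 7.94 to 4.28 ± 1.83 CPM. The largest rises were those of Spp1 (osteopontin), Wisp1 and Cyr61, now Ccn4 and Ccn1, with log2 fold changes of 1.64, 1.59 and 1.47 (edgeR adjusted p = 0.00639, 0.000547 and 0.00485). The lowest hyperoxic library of Spp1, at 8.04 CPM, lay below the normoxic range of 16.4 to 39.6 CPM. The other tenascins, Tnxb and Tnr, were at −0.73 and −0.58 with no call (edgeR adjusted p = 0.302 and 0.356). Ctgf, now Ccn2, was at 1.30 and did not pass (edgeR adjusted p = 0.0544), although it did without hyperoxia replicate 1 (1.56, edgeR adjusted p = 0.00186).

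Fibrin is the other scaffold of a provisional matrix, but the 3 fibrinogen chain genes, which the liver expresses, had at most 3 counts in any library. F13a1, the subunit of factor XIII that cross-links fibrin, rose by 0.96 on the log2 scale (edgeR adjusted p = 0.0008), and Vtn, the gene of vitronectin, went from a range of 3.34 to 12.7 CPM to one of 0 to 3.02 CPM, where no hyperoxic library reached the level the filter asks for, so it was tested because of its normoxic counts (log2 fold change −2.09). Tgm2, listed with these genes, was at 1.07 and did not pass (edgeR adjusted p = 0.0543), although it did without hyperoxia replicate 1 (1.30, edgeR adjusted p = 0.000569). Of the plasminogen activation genes, 3 of 5 tested rose and none fell, beside 11.8% and 10.8% of all genes. Plat, the tissue plasminogen activator, went from 14.5 ± 4.10 to 83.8 ± 45.7 CPM (log2 fold change 2.53, edgeR adjusted p = 0.000546). Its lowest hyperoxic library, at 7.51 CPM, lay below the normoxic range of 8.62 to 19.0 CPM. Serpine2 rose by 0.73 (edgeR adjusted p = 0.0224).

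Of the receptors of these proteins, 4 of 15 tested were higher and 3 lower, beside 11.8% and 10.8% of all genes. Both chains of the classical fibronectin receptor rose, Itga5 by 1.62 (edgeR adjusted p = 0.0347, from 3.71 ± 2.26 to 10.8 ± 7.18 CPM) and Itgb1 by 1.09 (edgeR adjusted p = 0.000294, from 311 ± 46.7 to 661 ± 167 CPM). The hyperoxic libraries of Itga5 ran from 0.536 to 22.1 CPM, beyond both ends of the normoxic range of 1.11 to 7.35 CPM. Tlr4, at which tenascin-C and hyaluronan fragments act, rose by 1.17 (edgeR adjusted p = 0.000715). Itga8 and Itga4, alpha chains that also bind fibronectin, fell by 1.64 and 0.95 (edgeR adjusted p = 4.26e-06 and 0.000238), and the thrombospondin receptor Cd36 fell by 0.62 (edgeR adjusted p = 0.0234).

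**Figure D4:**
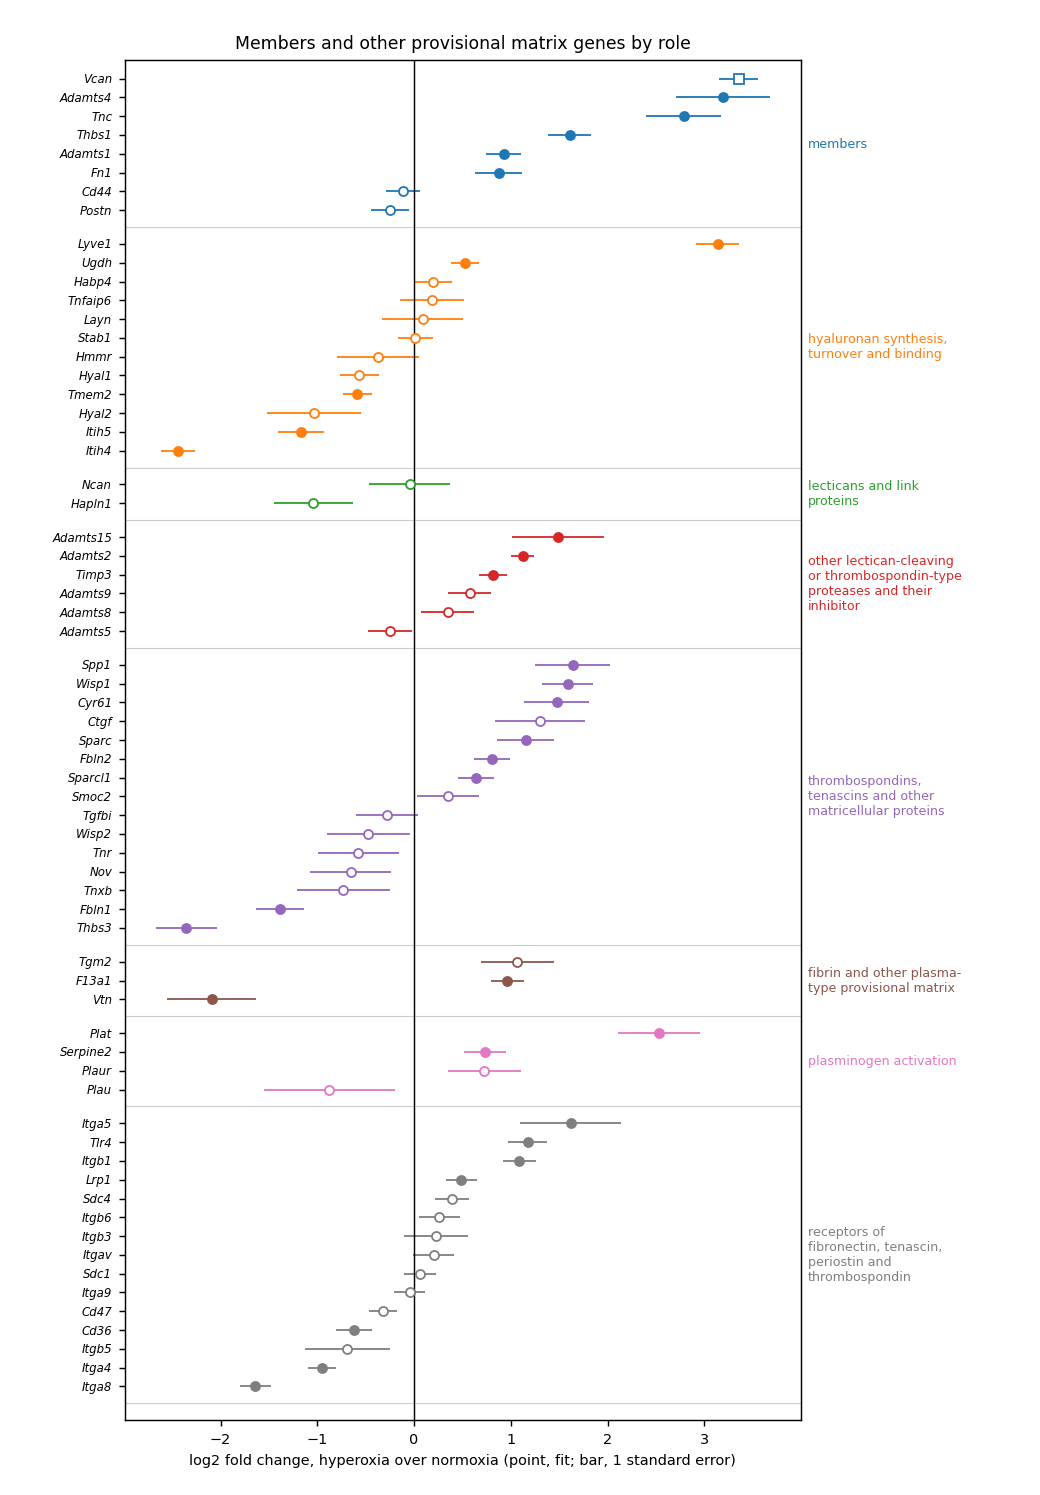
Log2 fold change, hyperoxia over normoxia, with 1 standard error for the 8 tested provisional matrix genes (top block; Vcan as an open square, shown without a test) and other tested genes by role; filled points passed an adjusted p of 0.05 and open ones did not. Each block except that of lecticans and link proteins holds filled points, from −2.44 for Itih4 to 3.20 for Adamts4.

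The genes most like Vcan were sought among the other 10111 genes whose mean log2 CPM was 3 or more. Over the 13 libraries, which share the split into 2 conditions, the closest were Eif5, Txnrd1, Cdkn1a, Acadl and 9030617O03Rik, with Pearson correlations of log2 CPM of 0.985, 0.984, 0.983, 0.978 and 0.977. With the group means taken out, they were Gm3550, Fam126b, Rad18 and Tcf7l2, with 0.859, 0.855, 0.851 and 0.846. None of these genes was one of the 10, and none was among the closest by both measures.

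The levels of cell type markers moved in part with these genes, and their share in the results was not tested. The numbers of markers called in these short lists stand beside 11.8% higher and 10.8% lower of all genes tested. Of 9 fibroblast markers, 7 were tested, and Pdgfra and Col3a1 rose (log2 fold changes 1.19 and 0.57, edgeR adjusted p = 0.000107 and 0.0215). Their summed level was 2156 to 3173 CPM in normoxia and 3041 to 3838 CPM in hyperoxia. Of 9 smooth muscle and pericyte markers, 3 rose (Acta2, Cnn1 and Des), and the sum was 369 to 455 CPM in normoxia and 499 to 847 CPM in hyperoxia, highest in hyperoxia replicate 1. Mesothelial markers, 6 listed and 5 tested, had 2 lower and a sum of 153 to 319 CPM in normoxia and 140 to 401 CPM in hyperoxia. The lowest sum, in replicate 1, followed Krt19 (12.3 CPM there, against a hyperoxic mean of 203 CPM), while Upk3b and Lrrn4 were above their hyperoxic means in that library. Of 8 alveolar macrophage markers, 4 fell and Mrc1 rose, with sums of 360 to 457 and 188 to 723 CPM, lowest in replicate 1, where Chil3 was at 13.9 CPM against a hyperoxic mean of 268 CPM. Of 8 markers of monocytes and recruited macrophages, 2 fell, with sums of 260 to 327 and 180 to 429 CPM, highest in replicate 1 with Csf1r at 357 CPM there, while Ly6c2, Adgre1 and Cd14 were at 0 in that library. Neutrophil markers had 1 of 5 tested higher (Mmp8), and sums of 104 to 202 and 45.0 to 259 CPM. Endothelial markers had 2 of 6 lower, and sums of 2798 to 5011 and 1244 to 4833 CPM. Alveolar type 1 markers had 1 of 6 lower, and sums of 1712 to 2107 and 686 to 2159 CPM, and heart muscle markers of the pulmonary vein had 2 of 5 lower, and sums of 59.7 to 229 and 4.83 to 271 CPM. The lowest hyperoxic sum of the neutrophil, endothelial, alveolar type 1 and heart muscle lists was that of replicate 1. Of the markers called, Ear1, Ear2, Siglecf, Krt79, Ly6c2, Mmp8, Tnni3 and Actc1 would not have passed the low-count filter on the group where they are lower. Markers of liver or plasma protein, with none of 4 tested, summed to 1.31 to 2.79 CPM in normoxia and 0.378 to 3.82 CPM in hyperoxia.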

How the data were processed

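Lung RNA of 7 normoxic and 6 hyperoxic samples was sequenced by Quant-seq, with 1 library per sample, and groups and replicate numbers were read from the sample titles. The authors used BioJupies, which runs kallisto, and the deposited counts are whole numbers per gene symbol and library, with no filter. Their processing notes name mm10. They also deposited log10 of CPM plus 1, which recomputation from the counts matched to within 4.44e-16. Counts were tested with edgeR 4.0.16 in R 4.3.3 (filterByExpr, TMM, glmQLFit and glmQLFTest, no covariate, Benjamini-Hochberg over all 12496 genes), and standard errors were taken from the log2 fold change and F statistic. Log2 CPM used a prior count of 2. Alternatives were DESeq2 1.42.0, limma-voom and limma (3.58.1) on the deposited log10 values, library size alone, other filters, a replicate block, the letter set, each library left out and a larger fold change. The comparisons within letter sets, which are contrasts of the same fit to all 13 libraries, were added after the data were seen. Every same-condition pair of libraries (36) differed by more than sampling noise. The fits were tested on simulated counts. Coordinates are from GENCODE M21 (GRCm38), matched by symbol, and promoters from RefSeq GRCm38.p6.

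The genes and lists were chosen with earlier results of these data known. All 10 genes are named, and of the other genes in each role those past an adjusted p of 0.05 and above a mean log2 CPM of 1, up to 3 in each direction by fold change; some items are not reported here. Genes named beside these, which did not pass or serve as examples of a marker list, were picked with their values in view. The labels do not state that each sample came from a different mouse, so p-values measure the spread between these libraries.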

Additional observations from a re-analysis of the deposited data

Results flagged for a closer look

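The spread within a group was examined for each of the 10 genes in the 7 normoxic and the 6 hyperoxic libraries, 20 groups in all, of which 1 in 20, or 1, would stand out by chance. In 2 groups a library was separated from its nearest neighbour by more of the group's range than Dixon's 95% limit allows. Adamts1 in hyperoxia replicate 1 was at 94.9 CPM, with the next library at 192 CPM, a gap of 0.697 of the range. Cd44 in normoxia replicate 3 was at 298 CPM, with the next library at 255 CPM, a gap of 0.629 of the range.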

How the results depend on the processing

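Over 168 values of single genes other than Vcan under other settings, 162 kept their direction and their side of the threshold. The call of Fn1 was lost with limma applied to the deposited logarithms (0.68, adjusted p = 0.0927), with the replicate block (0.76, edgeR adjusted p = 0.129) and within each letter set, and that of Adamts1 within O to S. Cd44 turned to 0.040 without hyperoxia replicate 1, and leaving out 1 library at a time gave −0.21 to 0.040. Of the 7 tested genes other than Vcan, 3 rose within O to S and 3 with a log2 fold change over 1.5, in both cases Tnc, Thbs1 and Adamts4, of which the last was tested through its hyperoxic counts alone. With at least 10 counts required in every library, which removes Tnc and Adamts4, 3 of 5 rose, beside 1224 of 8670 genes. Of the 58 other provisional matrix genes, 11 rose and 6 fell with the replicate block, where 718 and 626 of all 12496 genes did. Within B to M these numbers were 12 and 8, beside 1220 and 930 of all genes, within O to S 3 and 5, beside 292 and 420, and with the larger fold change 6 and 4, beside 194 and 294. The cause of these differences between settings was not tested. The replicate numbers did not pair the libraries, as 1 of 6 pairs had a correlation of deviations over 0.1 and 1 of 6 normoxic libraries correlated best with its own number. Limma on the deposited values moved the median change over all genes (log2) from −0.03 to −0.16 and the share of higher genes among those called from 52.3% to 38.8%. Has1 and Has2 passed no filter on low counts, and at 0 to 10 counts per library no difference in Has1 was detectable at this depth.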

Other observations

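The spread between libraries, as the coefficient of variation of CPM, was larger in hyperoxia than in normoxia for 7 of the 10 genes, and for 6 without hyperoxia replicate 1. For Vcan it was 10.2% in normoxia and 31.4% in hyperoxia (32.2% without that library), and for Thbs1 24.7% and 29.8% (33.6%). For Cd44 it was 8.67% and 28.5% (15.7%). For Adamts1 it was 13.7% and 26.8%, but 7.87% without that library. In the 3 genes near the floor in normoxia, Has1, Has2 and Adamts4, the spread was larger in normoxia (92.6%, 76.9% and 76.7%, against 86.1%, 49.6% and 51.4%). No test of these differences in spread was made.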
